A study of Drosophila melanogaster with 20 samples.

Results

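The head response to mating was compared between 24 h and 0-2 h after mating in Drosophila melanogaster females. The comparison used the 8 arrays of these head experiments, 4 per time, out of the 20 arrays of the series, and all rows of the table with at least 2 values at each time, 3179 of the 15744 rows that are not controls. All females were Canton S and were mated at 5 days of age to w; P[UAS-dj-GFP] males, 10 females with 20 males, and females carrying GFP-marked sperm were kept. At 0-2 h mated females were anaesthetized with CO2 and frozen at the end of the mating period, and their virgin controls had met no males but were also anaesthetized. At 24 h mated females, sorted earlier under CO2, and virgins of the same age were tapped into a tube and frozen without anaesthesia. Each array set RNA of about 100 mated heads against RNA of about 100 virgin heads, with 20 µg of total RNA labelled directly for each. The value used is taken as the log2 ratio of mated over virgin on every array, so that a positive difference between the times means a more positive ratio at 24 h. Each time point was 1 experiment, so time, experiment, the females' age and the way of collection cannot be told apart. The labels call the 4 samples of a time biological replicates.

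Mating changes feeding, egg production and metabolism in female flies, and part of this is triggered by seminal fluid proteins. Heads contain, besides brain and eyes, a fat body, a tissue of stores and secretion comparable to vertebrate liver and adipose tissue. It takes up amino acids, stores protein and glycogen, and releases proteins into the hemolymph. In whole heads, fewer cells of a type and less RNA per cell cannot be told apart, and a ratio gives no level, so that the presence of a cell type's markers in these heads could not be read from the values.

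Of the 8 arrays, those at 0-2 h carried values for 1671 to 3038 of the rows tested and those at 24 h for 467 to 2949. The lowest number belonged to replicate 2 at 24 h, which had a value for 14.7% of the rows tested, so most means at 24 h rest on 3 arrays. Mated RNA carried Cy3 on replicates 1 and 2 and Cy5 on replicates 3 and 4. Across the rows tested, arrays of the same dye orientation correlated at r = 0.60 to 0.69 at 0-2 h, while arrays of opposite orientation there correlated at -0.44 to -0.39. At 24 h these values were -0.08 to 0.52 and -0.05 to 0.15. Between the times, r was -0.03 to 0.38 for the same orientation and -0.39 to 0.02 for opposite ones. The sources used here do not state array by array that the deposited ratios were turned for the dye swap. The direction rests on the study's lists of mated over virgin ratios. Their 200 entries for these times all matched the row means as they stand. Those lists were made from these same experiments, so the match cannot show the direction of single arrays. Whether dye labelling or the direction of single arrays accounts for the negative correlations at 0-2 h was not tested. Lsp1beta, fit, aay and CG12896 lay above 0 there on all 4 arrays, in both orientations. Their names come from the study's 0-2 h list, which favours such agreement, so nothing is read from them for all rows. Other genes split by orientation at 0-2 h. CG3348 had log2 ratios of 1.66 and 1.68 on the Cy3 arrays and of -0.05 and -0.01 on the Cy5 arrays. Men had -0.39 and -0.21 on the Cy3 arrays and 0.99 and 0.86 on the Cy5 arrays. The difference within each orientation is given for the genes shown array by array below, where both were measured at both times. Beside the fit with 1 mean per time, counts are given from a limma fit with a dye term for each time, which takes out a shift between the orientations. That fit takes its spread only from arrays of the same orientation at the same time. Its p therefore leaves out any disagreement between the orientations, and a time with a single array per orientation adds no spread to it. A pass in it is a weaker statement than a pass in the fit with 1 mean per time. Rows are not independent replicates, and these correlations are descriptions.

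The response was lower at 24 h than at 0-2 h for 6 named genes and higher for 1. The lower ones were the larval serum storage proteins Lsp2 and Lsp1beta, the secreted fat body protein fit, the phosphoserine phosphatase aay, which makes serine, the predicted homocysteine S-methyltransferase CG10621 and the peroxiredoxin CG12896. The gene with a higher response was the heat shock chaperone Hsp68. These 7 of 3179 rows (0.22%) passed an adjusted p of 0.05 by limma with Benjamini-Hochberg adjustment, 6 lower (0.189%) and 1 higher (0.0315%). An unadjusted p under 0.05 was reached by 211 rows lower at 24 h (6.64%) and 101 rows higher (3.18%). The median difference over all rows was 0.01 on the log2 scale, with 1551 rows lower and 1628 higher. Names were available only for genes among the top 100 that the study listed per experiment, and all 7 names come from the lists of these very arrays. Their appearance among named genes is therefore no independent evidence, but the test itself ran over all rows, named or not.

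**Figure D1:**
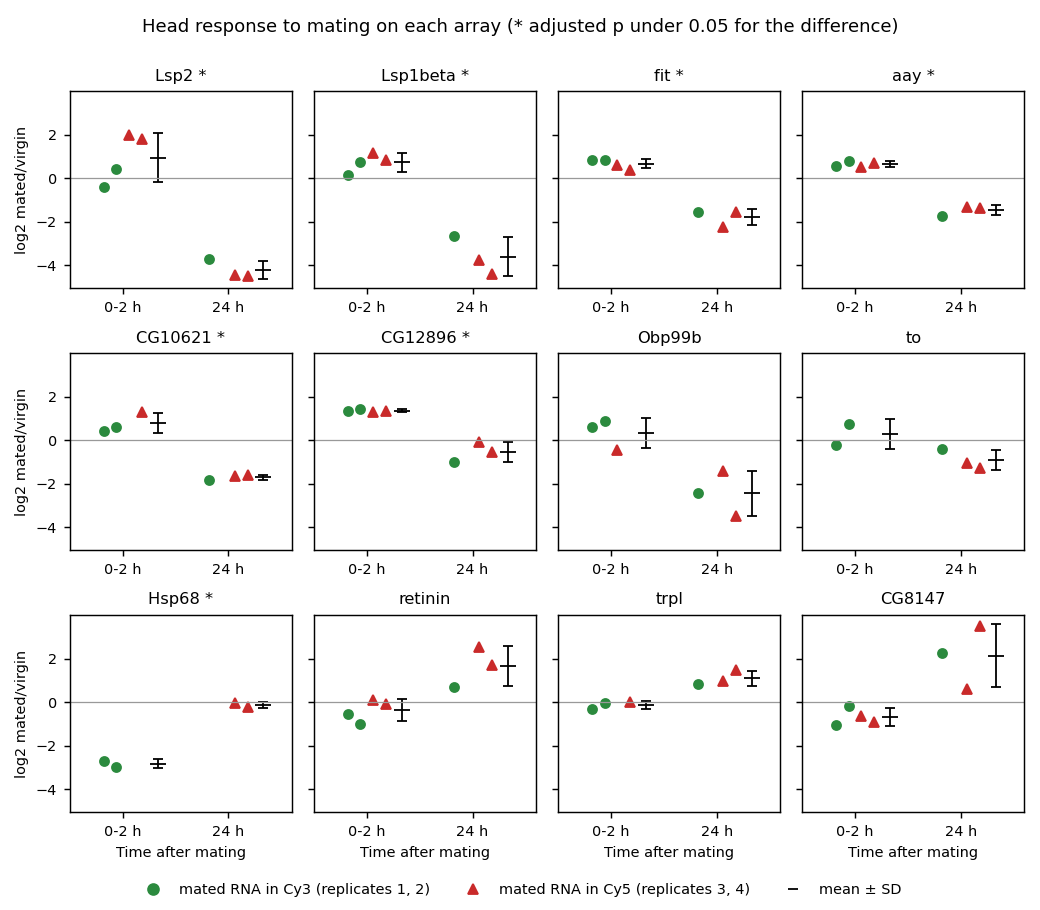
Log2 ratio of mated over virgin on each array at 0-2 h and 24 h for 12 genes, with mated RNA in Cy3 (green circles) or Cy5 (red triangles) and the mean ± SD in black. An asterisk marks an adjusted p under 0.05 for the difference; Lsp2 lies between -0.39 and 1.99 at 0-2 h and between -4.49 and -3.71 at 24 h, and Hsp68 has values only in opposite dye orientations at the 2 times.

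Lsp2, an amino acid storage protein of the fat body, had log2 ratios of -0.39, 0.42, 1.99 and 1.80 on replicates 1 to 4 at 0-2 h and of -3.71, -4.42 and -4.49 on replicates 1, 3 and 4 at 24 h. At 0-2 h the arrays with mated RNA in Cy5 were higher than those in Cy3, at 24 h all arrays were far below 0, and the groups did not overlap. The mean went from 0.96 ± 1.13 (SD, n = 4) to -4.21 ± 0.43 (SD, n = 3), a difference of -5.16 (SE 0.55), or 35.8-fold, with adjusted p = 0.00382 from limma. The difference was -3.73 within the Cy3 arrays and -6.35 within the Cy5 arrays.

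Lsp1beta, a related storage protein, had log2 ratios of 0.16, 0.75, 1.17 and 0.85 at 0-2 h and of -2.64, -3.76 and -4.40 on replicates 1, 3 and 4 at 24 h. Every array at 0-2 h was above 0 and every array at 24 h was below it. The difference was -4.33 (SE 0.41), 20.2-fold, with adjusted p = 0.00361 from limma, and it was -3.10 and -5.09 within the Cy3 and the Cy5 arrays.

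fit, a protein secreted by the fat body of the female head, had log2 ratios of 0.85, 0.84, 0.62 and 0.39 at 0-2 h and of -1.55, -2.21 and -1.55 on the same 3 replicates at 24 h. The ratio was above 0 on all arrays of the first time and below 0 on all with a value at the second. The difference of -2.45 (SE 0.25), 5.45-fold, had an adjusted p of 0.00361 from limma and was the same in both dye orientations to the second decimal (-2.39 and -2.39).

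aay had the most even values, 0.59, 0.81, 0.54 and 0.70 at 0-2 h and -1.71, -1.31 and -1.36 at 24 h. The difference was -2.12 (SE 0.21), 4.34-fold, with adjusted p = 0.00361 from limma, and it was -2.40 within the Cy3 and -1.96 within the Cy5 arrays. CG10621, the other called gene of amino acid metabolism, had log2 ratios of 0.43, 0.62 and 1.29 on replicates 1, 2 and 4 at 0-2 h and of -1.82, -1.65 and -1.61 on replicates 1, 3 and 4 at 24 h. All 3 values of each time lay on one side of 0, with a difference of -2.47 (SE 0.28), 5.54-fold, and adjusted p = 0.0122 from limma. It was -2.34 within the Cy3 and -2.92 within the Cy5 arrays. Without replicate 4 at 24 h the adjusted p from limma was 0.072.

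CG12896, a peroxiredoxin, had log2 ratios of 1.34, 1.46, 1.28 and 1.34 at 0-2 h and of -1.0, -0.09 and -0.55 at 24 h. Most of this difference lay at the first time, where the mean was 1.35 ± 0.07 (SD, n = 4), against -0.55 ± 0.45 (SD, n = 3) at 24 h. The difference was -1.90 (SE 0.25), 3.73-fold, with adjusted p = 0.0147 from limma, being -2.40 within the Cy3 and -1.63 within the Cy5 arrays. It did not pass without replicate 2 at 0-2 h (adjusted p = 0.060) or without replicate 4 at 24 h (0.0886). Prx2540-2, another peroxiredoxin, had a mean of 0.76 ± 0.14 (SD, n = 4) at 0-2 h, against 0.04 ± 0.61 (SD, n = 3) at 24 h, a difference of -0.72 with adjusted p = 0.490 from limma, or 0.024 with a dye term for each time; it was named after its values had been seen.

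Hsp68 had log2 ratios of -2.68 and -2.96 on replicates 1 and 2 at 0-2 h and of -0.02 and -0.24 on replicates 3 and 4 at 24 h. The low ratios were all at 0-2 h, and at 24 h the ratio lay close to 0. The difference was 2.70 (SE 0.32), 6.48-fold, with adjusted p = 0.050 from limma, just inside the threshold. Its values at 0-2 h came from arrays with mated RNA in Cy3 and those at 24 h from arrays with mated RNA in Cy5, so for this gene time and dye orientation cannot be told apart. The adjusted p was 0.0523 without replicate 2 at 24 h, on which Hsp68 has no value, 0.0556 with arrays centred on their medians and 0.0523 with arrays scaled to 1 spread. Altogether 188 rows (5.91%) had no orientation measured at both times, 41 of them with an unadjusted p under 0.05, and Hsp68 was the only one called.

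The groups did not overlap for any of the 7 genes, as for 715 of all rows tested (22.5%). With few arrays per time, this share is high by construction, and nothing is read from it for the called genes. Without moderation of the variances only aay passed, with adjusted p = 0.0426 from an ordinary linear model. With the dye term for each time, which could be fitted to 2033 rows, 86 rows were lower (4.23%) and 30 higher (1.48%) at 24 h by limma, and all 6 of the called genes it could test, those other than Hsp68, were among them. Of these 116 rows, 62 had a name and 54 had none.

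**Figure D2:**
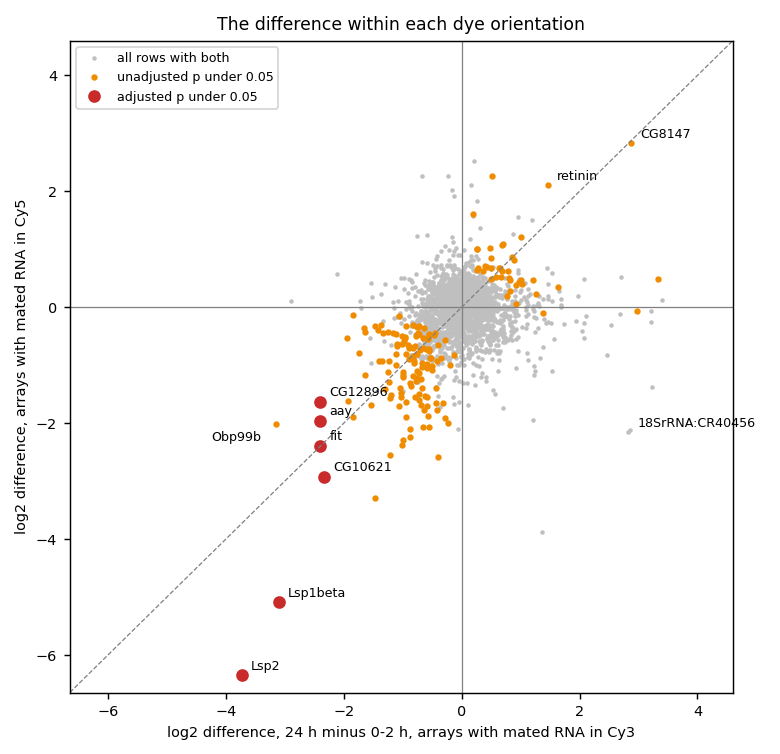
Difference in log2 mated/virgin between 24 h and 0-2 h within the arrays with mated RNA in Cy3 (x axis) and within those with mated RNA in Cy5 (y axis), for 2085 rows with both, with rows of unadjusted p under 0.05 in orange and of adjusted p under 0.05 in red; the dashed line marks equal differences. The 6 called genes that can be shown lie in the lower left, lower at 24 h in both orientations, while 18SrRNA:CR40456 has opposite signs in them.

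Over the 2085 rows with a difference in each orientation, the differences within the Cy3 arrays and within the Cy5 arrays had r = 0.25, given as a description, and 1153 rows (55.3%) had the same sign in both. Among the 170 of these rows with an unadjusted p under 0.05 the sign was the same in 168, which the test partly requires, since it uses the same values. Ribosomal RNA was an example of orientations that parted. The difference for 18SrRNA:CR40456 was 2.83 within the Cy3 arrays and -2.15 within the Cy5 arrays, and its pooled difference of -0.56 (SE 1.15) had adjusted p = 0.910 from limma.

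The other fat body genes of the list of storage and secreted proteins pointed the same way as the 3 called ones. All 6 tested members of 7 were lower at 24 h, 3 of them passed the adjusted and 5 the unadjusted test, and the median difference was -2.61, against 0.01 over all rows. Over all rows tested, 0.189% passed the adjusted and 6.64% the unadjusted test as lower. Of the 6 members, 5 were named from these arrays, so the direction is built in for them and the counts are favoured. Obp99b, an odorant-binding protein, had log2 ratios of 0.59, 0.86 and -0.44 on replicates 1 to 3 at 0-2 h and of -2.42, -1.42 and -3.49 on replicates 1, 3 and 4 at 24 h. The groups were apart, but with a wide spread within each, and the difference of -2.78 (SE 0.54) had adjusted p = 0.128 from limma. It was -3.14 within the Cy3 and -2.02 within the Cy5 arrays, and with a dye term for each time Obp99b passed (adjusted p = 0.0409). So 4 of the 5 members fitted there passed as lower, against 4.23% of all rows fitted, which the naming favours. to, the hormone-binding protein takeout, had log2 ratios of -0.20 and 0.76 on replicates 1 and 2 at 0-2 h and of -0.40, -1.05 and -1.25 at 24 h, a difference of -1.18 (SE 0.40, adjusted p = 0.410 from limma). Tsf1, the iron-binding transferrin, is the member that was named from other arrays only, and its means were -0.01 ± 0.14 (SD, n = 4) and -0.22 ± 0.78 (SD, n = 3), a difference of -0.20 (SE 0.34, adjusted p = 0.886), which was 0.43 within the Cy3 and -0.54 within the Cy5 arrays. Obp99a was not analysed here, as no row on these arrays could be given its name.

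Enzymes of amino acid and one-carbon metabolism had lower responses at 24 h in 13 of 14 tested members, with a median difference of -1.15. Only aay and CG10621 passed the adjusted test, and 11 members were lower with an unadjusted p under 0.05. The shares of all rows tested that were lower in these 2 ways were 0.189% and 6.64%. Of the 13 members fitted with a dye term for each time, 9 passed as lower and 1 as higher by limma, against 4.23% and 1.48% of all rows fitted. Of the 14 names, 13 were chosen on these arrays, which favours both the direction and a share above that of all rows, so nothing is read from that contrast. Oat, ornithine aminotransferase, had log2 ratios of -0.33, -0.31, 0.49 and 0.97 at 0-2 h and of -2.16, -1.17 and -1.17 on replicates 2 to 4 at 24 h. Its groups were apart, with a difference of -1.71 (SE 0.39) and adjusted p = 0.202 from limma. Within the Cy3 and the Cy5 arrays it was -1.84 and -1.90, and Oat passed with 1 dye term (adjusted p = 0.0028) and with 1 for each time (0.0017). CG3011, a serine hydroxymethyltransferase, which moves a carbon unit from serine to folate, had values on all 8 arrays, -0.35, 0.23, 0.21 and 0.78 at 0-2 h and -1.70, -0.30, -1.20 and -1.61 at 24 h. Replicate 2 at 24 h overlapped the values of the first time, and the difference was -1.42 (SE 0.34, adjusted p = 0.202), -0.94 within the Cy3 and -1.90 within the Cy5 arrays, with adjusted p = 0.0394 from a dye term for each time. ppl, a protein of the glycine cleavage system, differed by -1.21 (SE 0.26, adjusted p = 0.205). The exception in direction was the aminotransferase CG8745, whose mean of 0.00 ± 0.96 (SD, n = 2) at 0-2 h compares with 1.35 ± 0.97 (SD, n = 4) at 24 h, with overlapping groups. Its difference of 1.35 had adjusted p = 0.549 from limma and 0.0152 with a dye term for each time. At 0-2 h CG8745 had a single array per orientation, so the latter p holds no spread from 0-2 h.

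All 5 listed enzymes that supply NADPH or belong to the pentose phosphate shunt were lower at 24 h, each with an unadjusted and none with an adjusted p under 0.05, and the median difference was -1.04. The fit with a dye term for each time passed 4 of the 5 by limma, all but CG8036 (adjusted p = 0.0517), against 4.23% of all rows fitted that passed as lower. Over all rows tested, 6.64% were lower with an unadjusted p under 0.05. All 5 enzymes were named from these arrays, which favours the direction and the counts. Men, malic enzyme, had log2 ratios of -0.39, -0.21, 0.99 and 0.86 at 0-2 h and of -1.18 and -1.17 on replicates 1 and 4 at 24 h. The values at 0-2 h split by dye orientation, and those at 24 h did not. Its difference was -1.49 (SE 0.43, adjusted p = 0.380 from limma, 0.0097 with a dye term for each time), being -0.88 within the Cy3 and -2.09 within the Cy5 arrays. At 24 h Men had a single array per orientation, so the p with a dye term for each time holds no spread from 24 h. CG17333, which resembles 6-phosphogluconolactonase, differed by -1.04 (SE 0.34), Tal, transaldolase, by -1.12 (SE 0.39), CG8036, which resembles transketolase, by -0.73 (SE 0.28) and Pgd, 6-phosphogluconate dehydrogenase, by -0.94 (SE 0.39). Their adjusted p lay between 0.380 and 0.489.

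**Figure D3:**
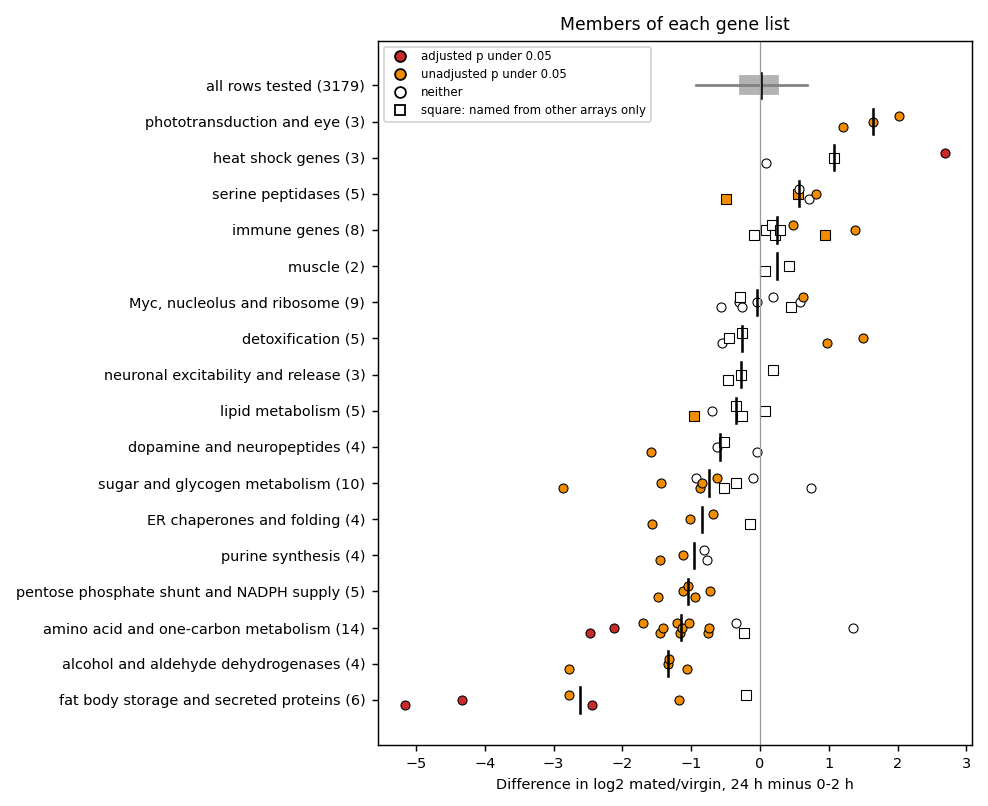
Difference in log2 mated/virgin, 24 h minus 0-2 h (x axis), for the tested members of each gene list (number in brackets), with the median as a vertical bar. Circles are genes named from these arrays and squares genes named from other arrays only, red passed the adjusted and orange the unadjusted test; the grey box and line span the 25th to 75th and the 5th to 95th percentile of all 3179 rows (-0.29 to 0.25 and -0.93 to 0.69).

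The 4 alcohol and aldehyde dehydrogenases were all lower at 24 h, with a median difference of -1.33, and all were named from these arrays. None passed the adjusted test, while with a dye term for each time all 3 that could be fitted did, namely Adh, Aldh and CG31075. Of all rows fitted so, 4.23% passed as lower, and the naming from these arrays favours the direction and the count. Adh, alcohol dehydrogenase, had log2 ratios of 0.26, 0.41, 0.14 and -0.16 at 0-2 h and of -0.90, -1.48 and -1.11 on replicates 1, 3 and 4 at 24 h. The groups did not overlap, and the difference of -1.33 (SE 0.24), 2.51-fold, had adjusted p = 0.0873 from limma. It was -1.24 within the Cy3 and -1.29 within the Cy5 arrays. CG3699, a short-chain dehydrogenase, had log2 ratios of 0.19, -0.02 and 0.95 on replicates 2 to 4 at 0-2 h and of -2.79 and -2.03 on replicates 3 and 4 at 24 h. Its difference of -2.78 (SE 0.40) had adjusted p = 0.068 from limma, the lowest of the members of the lists that missed the threshold. Aldh, aldehyde dehydrogenase, had values on all 8 arrays, -0.25, 0.03, 0.57 and 0.59 at 0-2 h and -0.91, -1.29, -0.63 and -0.46 at 24 h, with a difference of -1.06 (SE 0.27, adjusted p = 0.224), which was -0.99 within the Cy3 and -1.12 within the Cy5 arrays.

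The purine synthesis enzymes were lower at 24 h in all 4 tested members, with a median difference of -0.97 and none past the adjusted test. With a dye term for each time, all 3 that could be fitted passed by limma, namely CG11089, ade3 and Prat2, with adjusted p of 0.0231, 0.0417 and 0.0394. Of all rows fitted so, 4.23% passed as lower. All 4 names came from these arrays, which favours the direction and the count. CG11089, which carries out the last steps of the pathway to IMP, had log2 ratios of 0.13, -0.08 and 0.40 on replicates 2 to 4 at 0-2 h and of -1.09, -1.52 and -1.29 on replicates 1, 3 and 4 at 24 h. The difference was -1.45 (SE 0.25), 2.73-fold, with adjusted p = 0.0873 from limma, and it was -1.22 within the Cy3 and -1.56 within the Cy5 arrays. ade3, an enzyme of earlier steps, had -0.61, -0.36, 0.34 and 1.10 at 0-2 h and -1.25, -0.19, -1.28 and -1.26 at 24 h, so that replicate 2 at 24 h stood apart from the other 3, and its difference was -1.11 (SE 0.40, adjusted p = 0.380). It was -0.24 within the Cy3 and -1.99 within the Cy5 arrays.

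Sugar and glycogen metabolism had 9 of 10 tested members lower at 24 h, with a median difference of -0.74, 5 with an unadjusted and none with an adjusted p under 0.05. Of the 7 members fitted with a dye term for each time, 3 passed as lower by limma, against 4.23% of all rows fitted. Over all rows tested, 6.64% were lower with an unadjusted p under 0.05. Of the 10 names, 8 came from these arrays, which favours the direction and the counts. CG11909, an alpha-glucosidase, had the most negative difference, with log2 ratios of -1.18, -1.04 and 1.29 on replicates 1, 2 and 4 at 0-2 h and of -3.01 and -3.35 on replicates 3 and 4 at 24 h. Its first time point split by orientation, and the difference of -2.87 (SE 0.72) had adjusted p = 0.306 from limma. With 1 dye term it was -4.47, with adjusted p = 0.0028, and this is the difference within the Cy5 arrays, as none could be had within the Cy3 arrays. CG6084, an aldo-keto reductase, differed by -1.44 (SE 0.34, adjusted p = 0.246), and Glut1, a glucose transporter, went from 0.77 ± 0.06 (SD, n = 2) to -0.11 ± 0.10 (SD, n = 2), a difference of -0.88 (SE 0.30, adjusted p = 0.447). Of the chaperones of the endoplasmic reticulum, 4 of 4 were lower with a median of -0.85, among them Hsc70-3, the fly BiP, at -1.02 (SE 0.42, adjusted p = 0.490), whose groups overlapped and which passed with a dye term for each time (adjusted p = 0.0394).

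Genes of the eye had more positive ratios at 24 h, which missed the adjusted test in the fit without dye terms. With a dye term for each time, both eye genes that could be fitted passed by limma, retinin (adjusted p = 0.0097) and trpl (0.0409), and retinin also did with 1 dye term (0.023). Of all rows fitted with a dye term for each time, 1.48% passed as higher, and naming from these arrays favours the passing of these genes. In the fit without dye terms, 3.18% of all rows tested were higher with an unadjusted p under 0.05. The 3 tested members of 6, the opsin Rh4 of ultraviolet-sensitive photoreceptors, the corneal lens protein retinin and the phototransduction channel trpl, had a median difference of 1.65, each with an unadjusted and none with an adjusted p under 0.05, and all 3 were named from these arrays. retinin had log2 ratios of -0.53, -1.01, 0.12 and -0.09 at 0-2 h and of 0.70, 2.52 and 1.72 on replicates 1, 3 and 4 at 24 h. The groups did not overlap, and the difference of 2.02 (SE 0.43), 4.06-fold, had adjusted p = 0.162 from limma. It was 1.47 within the Cy3 and 2.10 within the Cy5 arrays. Rh4 had -0.10, -0.35 and -0.24 on replicates 1 to 3 at 0-2 h and 1.54 and 1.30 on replicates 3 and 4 at 24 h, a difference of 1.65 (SE 0.27) with adjusted p = 0.0873. trpl had -0.32, -0.03 and 0.02 on replicates 1, 2 and 4 at 0-2 h and 0.83, 0.96 and 1.49 on replicates 1, 3 and 4 at 24 h, a difference of 1.21 (SE 0.26) with adjusted p = 0.202, which was 1.01 within the Cy3 and 1.21 within the Cy5 arrays. Rh5, a blue-sensitive opsin, had 0.77, 0.93 and 0.51 at 24 h and no value at 0-2 h, so it was not tested.

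Of the markers fixed for the cell types of the head, the fat body list is given above and the eye markers are the same 3 genes. The 5 tested neuron markers had a median difference of -0.47, 4 lower and 1 higher, and the 2 tested muscle markers one of 0.25, with none past the adjusted test. sNPF, the precursor of short neuropeptide F, had log2 ratios of 1.46 and 0.58 on replicates 1 and 2 at 0-2 h and of -1.21 and 0.07 on replicates 3 and 4 at 24 h, opposite dye orientations, with a difference of -1.59 (SE 0.53, adjusted p = 0.426 from limma). ple, tyrosine hydroxylase of dopamine synthesis, went from 0.72 ± 0.18 (SD, n = 3) to 0.09 ± 0.78 (SD, n = 3), a difference of -0.63 (SE 0.39, adjusted p = 0.652), which was 0.33 within the Cy3 and -1.20 within the Cy5 arrays. Fcp26Aa, a marker of ovarian follicle cells that heads should lack, had log2 ratios of 4.40, 1.84 and 0.58 on replicates 1 to 3 at 0-2 h and no value at 24 h. Its part in the other differences was not tested.

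**Figure D4:**
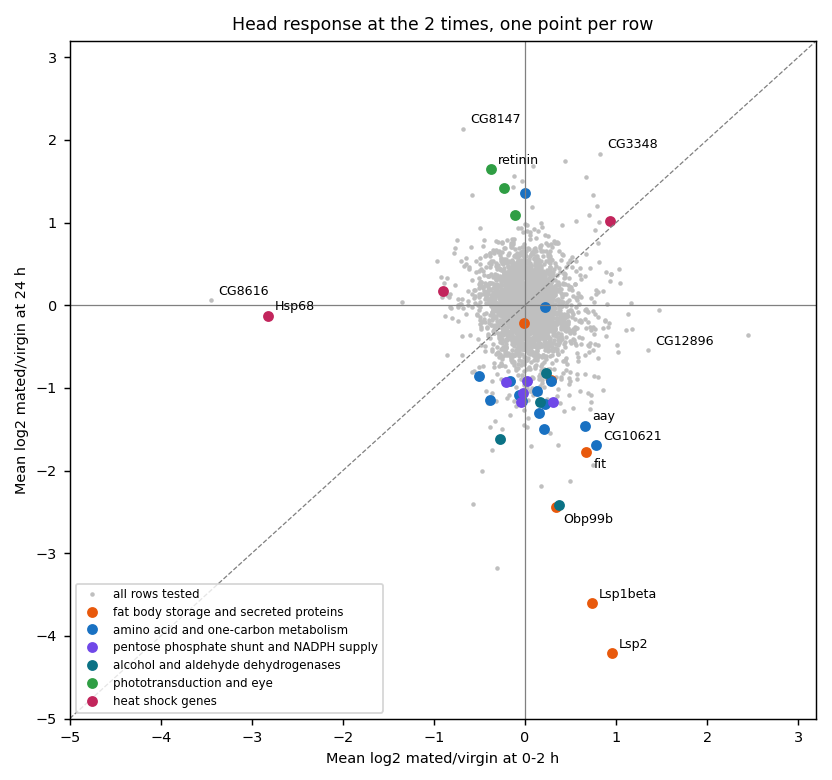
Mean log2 mated/virgin at 0-2 h (x axis) and at 24 h (y axis) for all 3179 rows (grey) and for the members of 6 gene lists (colours); the dashed line marks equal responses. Lsp2, Lsp1beta, fit, aay and CG10621 lie to the right of 0 at 0-2 h and far below 0 at 24 h, while Hsp68 and CG8616 lie far to the left and close to 0 on the y axis.

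Few rows had means of opposite sign with an unadjusted p under 0.05 by limma at both times. They were 19 of the 3179 rows tested, 15 higher in mated heads then lower and 4 lower then higher, against 11 rows with the same sign at both. At 0-2 h 126 rows had such a p and at 24 h 360, and how many would meet both by chance was not worked out. Among the named rows of opposite sign only CG12896 passed the adjusted limma test at 0-2 h (adjusted p = 0.022), and at 24 h it had 0.288. At 0-2 h aay had 0.397 and Lsp2 and Lsp1beta 0.999, so for the others that test does not settle the sign at 0-2 h. Of the 19, 13 had names, among them the 6 called genes that were lower at 24 h. CG15096, a transporter of the major facilitator family, had log2 ratios of 0.52, 0.48, 1.05 and 0.78 at 0-2 h and of -0.54, -0.54 and -0.41 at 24 h, with a difference of -1.21 (SE 0.22, adjusted p = 0.0873), being -1.04 within the Cy3 and -1.39 within the Cy5 arrays. su(r), dihydropyrimidine dehydrogenase of pyrimidine breakdown, had 0.40, 0.92 and 0.49 on replicates 1 to 3 and then -0.88 and -1.20 on replicates 1 and 3, a difference of -1.64 (SE 0.30, adjusted p = 0.128), being -1.54 within the Cy3 and -1.69 within the Cy5 arrays. CG5053 differed by -1.90 (SE 0.36, adjusted p = 0.109), Sgt, a co-chaperone, by -1.89 (SE 0.40, adjusted p = 0.243) and alt by -1.46 (SE 0.31, adjusted p = 0.202). With a dye term for each time CG15096, su(r) and CG5053 passed by limma, with adjusted p of 0.0093, 0.0268 and 0.0049, and Sgt and alt could not be fitted. For su(r) the only spread of its own in that fit is that between replicates 1 and 2 at 0-2 h. The named rows that went from lower to higher were Wwox, an oxidoreductase, at 1.54 (SE 0.38, adjusted p = 0.245) and nimB4, a phagocytosis gene of the Nimrod family, at 0.95 (SE 0.28, adjusted p = 0.380). Both had 2 values at 0-2 h, all from arrays with mated RNA in Cy3, and 4 at 24 h.

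CG8147 and CG3348, both with high ratios at 24 h, differed at the first time. CG8147, an alkaline phosphatase, had log2 ratios of -1.04, -0.15, -0.62 and -0.92 at 0-2 h and of 2.28, 0.62 and 3.50 on replicates 1, 3 and 4 at 24 h. It was below 0 on every array of the first time and above 0 on all 3 of the second, with a difference of 2.82 (SE 0.57), 7.05-fold, and adjusted p = 0.128 from limma. The difference was 2.87 within the Cy3 and 2.83 within the Cy5 arrays. Leaving out replicate 3 at 24 h, its lowest value there, raised the difference to 3.57 with adjusted p = 0.00835 from limma, and nothing is read from that choice of array. Its adjusted p was 0.0409 with a dye term for each time. CG3348 had log2 ratios of 1.66 and 1.68 on the Cy3 arrays and of -0.05 and -0.01 on the Cy5 arrays at the first time, so that its values split by orientation. The mean was 0.82 ± 0.98 (SD, n = 4), against 1.83 ± 0.39 (SD, n = 3) later, and the difference of 1.01 (SE 0.49) had adjusted p = 0.554. It was -0.16 within the Cy3 and 2.02 within the Cy5 arrays, and although the orientations parted in sign, the fit with a dye term for each time gave 0.93 with adjusted p = 0.0335. dm, the fly Myc factor, had almost the same mean at both times, 0.80 ± 0.46 (SD, n = 3) and 0.75 ± 0.22 (SD, n = 3), with a difference of -0.04 (SE 0.30) and adjusted p = 0.974, 0.02 within the Cy3 and -0.46 within the Cy5 arrays.

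The remaining lists held few calls or none. Of the heat shock genes, 3 of 5 were tested and all 3 had higher values at 24 h, with Hsp68 called, although Hsromega turned to -0.56 when the arrays were scaled to one spread. DnaJ-1, a co-chaperone, went from -0.90 ± 1.13 (SD, n = 3) to 0.18 ± 0.04 (SD, n = 2), a difference of 1.08 (SE 0.60, adjusted p = 0.637 from limma), which was -0.23 within the Cy5 arrays. Hsp26 had log2 ratios of -2.91 and -4.25 at 0-2 h and none at 24 h, and Hsp67Bb had -1.78 and -1.59 at 0-2 h and 0.93 on 1 array at 24 h, so neither was tested. Of the immune genes, 7 of 8 tested members were higher, with a median of 0.25 and the NF-kappaB factor Rel at 1.38 (SE 0.51, adjusted p = 0.482). Serine peptidases were higher in 4 of 5, with CG9676 at 0.82 (SE 0.31, adjusted p = 0.460 from limma). Of the 5 tested detoxification genes, 3 were lower and 2 higher, with a median of -0.27. GstE1, one of the higher ones, differed by 1.50 (SE 0.38, adjusted p = 0.339 from limma). The 9 tested genes of Myc, nucleolus and ribosome had a median of -0.04, which was -0.23 with scaled arrays, the 5 of lipid metabolism one of -0.35, the 4 of dopamine and neuropeptides one of -0.58 and the 3 of neuronal excitability one of -0.27. Apart from Hsp68, no tested member of these lists passed the adjusted test. With a dye term for each time, 1 ribosomal RNA of 8 fitted members of the Myc, nucleolus and ribosome list passed as higher, against 1.48% of all rows fitted.

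**Figure D5:**
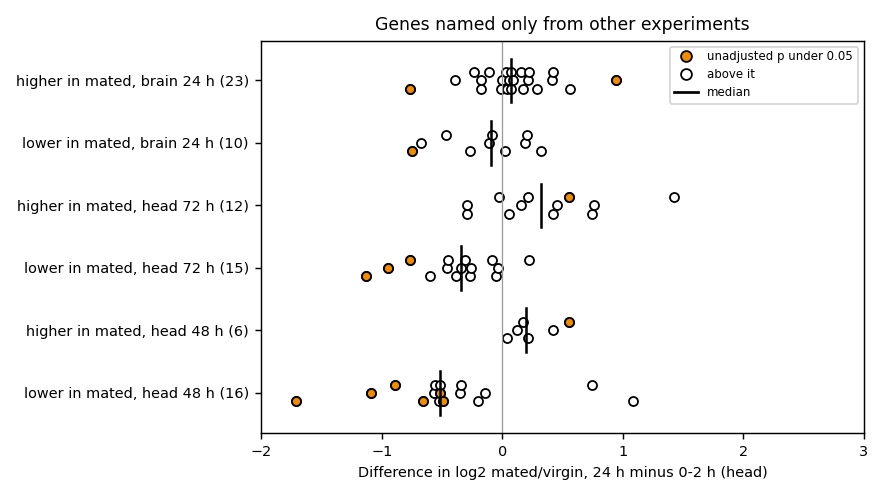
Difference in log2 mated/virgin between 24 h and 0-2 h heads (x axis) for genes whose name comes only from the 48 h, 72 h or brain experiments, split by that experiment and by the direction there (number in brackets), with the median as a vertical bar and genes of unadjusted p under 0.05 in orange. Of the 16 genes lower in mated heads at 48 h, 14 lie left of 0, and the 6 that were higher at 48 h all lie right of 0.

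Genes named only from the other experiments were not chosen on these 8 arrays, and there were 75 of them among the rows tested. None passed the adjusted test by limma, and their median difference was -0.09. With an unadjusted p under 0.05, 10 were lower and 2 higher at 24 h, against 6.64% and 3.18% of all rows. The direction followed that of the other head experiments. Of 16 genes that were lower in mated heads at 48 h, 14 (87.5%) were lower at 24 h than at 0-2 h, with a median of -0.52, while 48.8% of all rows were. The 6 that were higher at 48 h were all higher, with a median of 0.19. For the 72 h list 14 of 15 lower genes were lower at 24 h (median -0.35) and 9 of 12 higher ones were higher (0.32). The 48 h and 72 h lists share genes, CG8329 among them, so their counts are not separate observations. For the brain list the medians were -0.10 over 10 genes and 0.07 over 23. These counts are descriptions without a test. The lowest unadjusted p of the 48 h genes was 0.0123, that of Glt, glutactin of basement membranes, whose mean of -0.10 ± 0.14 (SD, n = 4) at 0-2 h compares with -0.98 ± 0.58 (SD, n = 3) at 24 h. With a dye term at each time 3 of the 56 of these genes that could be fitted passed by limma, CG14528, Gip and sug, with adjusted p of 0.0409, 0.0398 and 0.0439. Of all rows fitted so, 4.23% passed as lower and 1.48% as higher. For CG14528 the only spread of its own in that fit is that between replicates 1 and 2 at 0-2 h. Glt, CG14528, Gip and sug were named after their values had been seen.

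Of the called genes, 5 were also set beside the later head experiments and the dissected brains. This used the part of the print where a row held the same gene in all experiments, which leaves out Lsp1beta. Hsp68 is not among the 5, as it had no value at 48 h, -0.33 on 1 array at 72 h and 0.50 on 1 brain array. For Lsp2 the mean was -4.05 ± 0.62 at 48 h, -1.37 ± 0.98 at 72 h and -0.66 ± 1.02 in brains at 24 h (SD, n = 4 each). The means of aay in the same order were -0.92 ± 0.18, -0.27 ± 0.32 and 0.31 ± 0.33 and those of fit were -0.84 ± 0.55, -0.42 ± 0.41 and -0.06 ± 0.44 (SD, n = 4 each). CG10621 had means of -0.69 ± 0.28, 0.35 ± 0.63 and 0.18 ± 0.78 (SD, n = 4 each). CG12896 had -0.38 ± 0.56 (SD, n = 3) at 48 h, -0.38 ± 0.36 (SD, n = 4) at 72 h and 0.37 ± 0.25 (SD, n = 4) in brains. In all 5 of these genes the 24 h head mean was the lowest of those given, and the 0-2 h mean was the highest, an order that the choice of these genes by those 2 means favours and from which nothing is read. These are descriptions, and the differences among the later experiments were not tested here.

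Of the 200 list entries made from these 2 experiments, all matched a row, but 30 of the 0-2 h list had fewer than 2 values at 24 h and 14 of the 24 h list had fewer than 2 at 0-2 h, so these rows entered no test. CG32444 had log2 ratios of -2.07, -1.68 and -0.93 on replicates 1, 3 and 4 at 24 h and no value at 0-2 h. CG8616 was tested, with log2 ratios of -3.11 and -3.79 on replicates 3 and 4 at 0-2 h and of 3.49, -1.90 and -1.41 on replicates 1, 3 and 4 at 24 h. The array with mated RNA in Cy3 stood far from the other 2 at 24 h, and the difference of 3.51 (SE 1.46) had adjusted p = 0.499. CG32444 and CG8616 were named after their values had been seen.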

How the data were processed

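Female heads were profiled on 2-colour oligonucleotide arrays, 4 at 0-2 h and 4 at 24 h after mating. For all arrays together the authors deposited 1 table of log2 ratios, which were taken as mated over virgin on every array because the study's listed mated over virgin ratios match the row means as they stand; the submitters' processing notes name limma. How the arrays were scanned, corrected for background and normalized, whether each array was turned for the dye swap, and why a cell is empty, is not given in the sources used here. Leaving out 32 control rows, 15744 of the 15776 remained, and 0 columns stayed unused. It carries no depth, and the number of arrays limits the precision.

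Rows with at least 2 values at each time (3179) were fitted in R 4.3.3 with limma's lmFit and eBayes, version 3.58.1, to 1 mean per time, without covariates, and the difference, 24 h minus 0-2 h, was tested with Benjamini-Hochberg adjustment over all of them. The script was tested on simulated data. Names were taken from the study's lists of 100 genes per experiment by matching mean ratio (relative tolerance 2e-05) and p (0.0001), or to the last printed digit, which placed 499 of 500 entries; names from the 48 h, 72 h and brain lists were used on plates 2 to 30 only, where the print layout was shared. The lists' ratios served for matching only.

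Members, gene lists and the naming rule were chosen with earlier results of these data known. The rule names up to 12 called genes per direction with 3 or more values at each time, up to 4 members of lowest p of each list, genes of opposite sign with an unadjusted p under 0.05 at both times, and Lsp2, Lsp1beta, fit, to, Obp99a, Obp99b, CG8147 and CG3348. Hsp68, with 2 values at each time, enters as a list member. Alternatives were centring, scaling, dye terms, stricter value minimums, plates 2 to 30, robust, no or array-weighted moderation, all 16 head or all 20 arrays in 1 fit, a replicate block and leaving out each array. Tables and figures used Python 3.11.15, pandas 2.3.3, numpy 2.4.6 and matplotlib 3.10.9.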

Additional observations from a re-analysis of the deposited data

Results flagged for a closer look

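The difference between the times was tested for every row, and 7 genes passed it. The values on the log2 scale were -4.33 for Lsp1beta, -2.12 for aay, -2.45 for fit, -5.16 for Lsp2, -2.47 for CG10621, -1.90 for CG12896 and 2.70 for Hsp68. The last compares arrays of opposite dye orientation, with 2 values at each time.

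Of 44 sets of 4 array values at 1 time that were checked for the genes of the naming rule, 1 held an array that stood apart, where chance gives about 1 in 20. For ade3 at 24 h, replicate 2 had a log2 ratio of -0.19 against -1.25 to -1.28 on the other 3, a gap of 0.974 of the whole range. That array has a value for 467 of the 3179 rows tested.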

How the results depend on the processing

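The fit as reported gave 7 rows with an adjusted p under 0.05, 6 lower and 1 higher. Under several settings the total, the lower or the higher count moved by more than 1.5 times or fell to 0. The lower and higher counts were 6 and 0 with arrays centred on their medians and 8 and 0 with arrays scaled to 1 spread. They were 14 and 4 (18 in all) with 1 dye term and 86 and 30 (116) with a dye term for each time. Values in each orientation at both times gave 6 and 0, and 3 or more values at each time gave 10 and 0. No row passed of the 102 with values on all 8 arrays by limma (5 lower, 0 higher unadjusted), 1 and 0 without moderation, 24 and 8 (32) with array weights, 19 and 2 (21) with all 16 head arrays and 20 and 4 (24) with all 20 arrays. The settings differ in rows tested, from 102 to 3179. Plates 2 to 30 alone gave 5 and 1, robust eBayes 6 and 1. Of genes named only from other experiments 1 passed with 1 dye term and 3 with a dye term for each time. Leaving out 1 array gave 4 to 12 rows, 4 to 9 lower and 0 to 3 higher, and 0 named only from other experiments; 24 h replicate 1 gave the 12 and 24 h replicate 4 the 4.

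Replicate numbers were not used to pair the samples. Deviations from the time means of samples with the same number correlated at 0.36, 0.01, 0.36 and 0.13. The 0-2 h arrays of replicates 1 and 3 correlated best with their own number at 24 h, and those of replicates 2 and 4 did not. The number also fixes the dye orientation, so these values cannot settle whether the samples were paired. With a replicate block 9 rows passed, 9 lower and 0 higher, of 2138 that could be fitted, all 6 called genes tested there among them.

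For the 73 genes followed, 1225 of 1329 gene and setting pairs kept direction and side of the threshold, 76 passed in addition and 12 were lost, among them 6 without moderation. The sign turned in 16 pairs of 10 genes, none of which the fit as reported calls. It did for DnaJ-1 (-0.23) and cac (0.34) with 1 dye term, for Cyp6g1 (0.075), sPLA2 (0.15), Sh (-0.23) and Hsromega (-1.81) with array weights, and for Hsromega (-0.56) with scaled arrays. It also did for P58IPK (0.024) with a dye term for each time, and for cpx (0.052) and Dat (0.086) with a replicate block. With 1 array left out the difference ranged from -0.61 to 0.052 for cpx, from -0.27 to 0.62 for Sh, from -0.48 to 0.23 for P58IPK, from -0.14 to 0.21 for Tm1 and from -0.14 to 0.034 for Dat. The cause was not tested.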
